A study of Saccharomyces cerevisiae with 26 samples.

Results

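Autophagy genes were described in RNA sequencing libraries of *S. cerevisiae* CEN.PK113-7D, a haploid laboratory strain that is widely used in physiological studies. Members were all genes of the expression files whose systematic name carries, in release R64 of the *S. cerevisiae* S288C annotation, a standard name made of ATG and digits. This rule uses no measured value and gave 37 of the 6600 genes in each file. Genes of the pathway that go by another standard name, such as VPS30 and VPS34, are not members and are given in a separate list further on. All cultures were aerobic, glucose-limited bioreactor cultures run first as chemostats at a dilution rate of 0.025 per hour. The chemostats combined a culture pH of 5 or 3 with an inlet gas holding either 0.04% or 50% CO2, which makes 4 conditions of 3 libraries each, and pH 5 with 0.04% CO2 served as the reference. In the condition that combines pH 3 and 50% CO2, 1 library is labelled as a chemostat (replicate 3), and the other 2 are the point-1 libraries of the industrial retentostats, drawn before biomass was retained. In the retentostats, cells were held back while medium flowed on, so that growth rate fell from sampling point 1 to sampling point 4. Each retentostat condition had 2 cultures, each sampled at the 4 points. The laboratory retentostats were kept at the reference pH and CO2, with 20 g/L glucose in the chemostat phase and 7.5 g/L in the retentostat phase, and the industrial retentostats ran at pH 3 with 50% CO2, with 20 g/L glucose throughout. The chemostats also received 20 g/L glucose, and the medium of the chemostats and of the industrial retentostats, but not that named for the laboratory retentostats, held 7.5 mg/L iron sulfate and 1.1 mg/L biotin. The chemostats at pH 3 were described by the study as oscillating in off-gas composition and as having more dead cells, so values there are means over cells in different states. Corrected for viability, the study's specific growth rates were higher at pH 3 than at pH 5. The shared dilution rate therefore does not match the growth rate of living cells between the 2 pH values.

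Macroautophagy encloses cytoplasm in a double membrane, the autophagosome, and delivers it to the vacuole for breakdown. In yeast, the Atg1 kinase complex starts the process when TORC1 activity falls, vesicles that carry Atg9 seed the membrane, a phosphatidylinositol 3-kinase marks it, lipid is supplied through Atg2, and the ubiquitin-like proteins Atg8 and Atg12 are conjugated to lipid and to Atg5 so that the membrane grows and takes up cargo. Selective receptors tie mitochondria, peroxisomes, endoplasmic reticulum, nuclear envelope or vacuolar enzymes to Atg8 and to the scaffold Atg11, and vacuolar lipases and proteases break down what arrives. Transcript levels were measured here, not autophagic flux.

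The upstream regions of the members were searched for 3 motifs on both strands in the 300 bases before the start codon, in release R64. The motifs were GGCGGC, the core of the site bound by Ume6, a repressor of ATG8, then AGGGG, the stress response element bound by Msn2 and Msn4, and TGACTC, the site of Gcn4. GGCGGC stood before 3 of the 37 members (8.11%), against 312 of 5897 genes searched (5.29%). AGGGG stood before 11 members (29.7%) and 22.5% of all genes, and TGACTC stood before 5 members (13.5%) and 7.89% of all genes. ATG8 and ATG42 held all 3 motifs, and ATG8 held GGCGGC at a pair of overlapping positions, 133 and 130 bases before its start codon. The windows with GGCGGC are shown because they lie before ATG8 and ATG42, whose levels are described repeatedly below, and before the receptor gene ATG19, which hardly moved in the retentostats. An AGGGG window of ATG9 and the TGACTC window of ATG4 are shown for comparison. Capitals mark the motif, and each sequence reads in the direction of the gene.
ATG8, chrII:80847-80876, minus strand: ccggttattttcGGCGGCggcaaaaatatt
ATG42, chrII:515511-515540, plus strand: aaaaatggccgaGGCGGCgctagcattcta
ATG19, chrXV:168672-168701, plus strand: cgaggtaattgcGGCGGCacttgcttcagt
ATG9, chrIV:184791-184819, plus strand: tttcggaactttAGGGGagccacacttta
ATG4, chrXIV:227123-227152, plus strand: tatgcttatattTGACTCtgcgattaaatc

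The values are deposited FPKM, the reads of a gene per kilobase of length, relative to the reads counted in its library. Converted back, they correspond to 12528648 to 86470818 reads on genes per library, and the laboratory retentostat libraries were deeper (at least 21717268 reads) than the others (at most 16709016). The deposited values were divided by median-of-ratios factors, which ranged from 0.630 to 1.32 and which set the median gene equal between libraries, and these values are called scaled FPKM. Changes are differences of log2(scaled FPKM + 1), which understates the change of low genes. The scaling matters most at pH 3 with 0.04% CO2. With unscaled values, the median of all genes tested was shifted by -0.42 on the log2 scale there against the reference, and by 0.60 between 50% and 0.04% CO2 at pH 3. Several libraries stood apart from their groups. Replicate 3 of the reference and replicate 1 of pH 5 with 50% CO2 deviated from the other cultures of their groups by a median of 0.31 and 0.34 on the log2 scale over all genes, against 0.11 to 0.23 for the other 10 libraries of the chemostat set, and their deviations were alike (Pearson's r = 0.84 across genes, which are not independent replicates). The members deviated by more, 0.40 and 0.44. The chemostat results are therefore also given without these 2 libraries, an alternative chosen after the data had been seen, which narrows the spread by its construction. In the laboratory retentostat, the 2 cultures at point 2 were less alike (r = 0.973 over genes on the log2 scale) than the pairs at the other points (0.989 to 0.997). The industrial pair at point 2 was likewise less alike (0.986) than those at the other points (0.995 to 0.996).

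Levels of the members covered a wide range. FPKM is per length, so genes can be compared, but the length used is the gene span with introns. This understates ATG44, with 222 exon bases in a span of 284, and ATG38, with 681 in 740. ATG44, which encodes a mitochondrial fission factor needed for mitophagy, had 109 to 901 scaled FPKM over the 26 libraries, and ATG8, whose lipid-anchored protein coats the growing membrane, had 210.3 to 870.2. Their order differed between sets of libraries, and at points 1 and 2 of the laboratory retentostats ATG44 was below ATG8 in each library. The receptors ATG34 (188 to 697), ATG39 (149.5 to 449), ATG40 (98.6 to 291) and ATG19 (94.1 to 189) were above the kinase gene ATG1 (32.5 to 87.6), the scaffold gene ATG11 (18.8 to 63.3) and ATG9 (12.7 to 53.0) with no overlap. The ranges of the receptors ATG32 (32.9 to 90.7) and ATG36 (21.7 to 156) did overlap those of ATG1, ATG11 and ATG9. ATG2, the gene of the lipid transfer protein, had 4.37 to 12.6. ATG16 and ATG27 depended on the set of libraries. ATG16, whose protein holds the Atg12 and Atg5 conjugate together, had 0 to 0.32 scaled FPKM in the 8 laboratory retentostat libraries, from at most 9 reads, and 10.2 to 29.0 in all others. ATG27, which encodes a membrane protein of Atg9 transport, had 93.2 to 156 in the laboratory retentostat libraries and 4.64 to 10.2 in all others. The study's methods name a different sequencing provider and single-end reads for the laboratory retentostats, whereas the sample labels name the same provider for all, and the laboratory retentostats were the only cultures whose labels name no added iron sulfate and biotin. At point 1 they shared pH, CO2 and dilution rate with the reference chemostats, and ATG16 had 0.20 and 0.21 there against 14.6 to 25.2 in the reference, and ATG27 94.7 and 93.2 against 8.01 to 9.66. The gap was thus present with these 3 conditions matched. Medium, library preparation and any other difference between these sets of libraries cannot be told apart. For this reason levels of the laboratory retentostats were, apart from these 2 genes, not compared with those of other libraries. ATG29 shares bases with YPL165C on the opposite strand, and its values are uncertain where the counting did not use strand.

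In the laboratory retentostats, transcripts of most of the autophagy machinery rose as growth slowed. From the first to the last sampling point, 19 of 36 members tested rose and 1 fell (limma, Benjamini-Hochberg adjusted p under 0.05 over all genes), whereas 17% of the 5596 genes tested rose and 14% fell, 31% in all. The median change of the members was 0.57 on the log2 scale, against 0.06 for all genes. Within the Atg1 complex 3 of 5 members rose, within the conjugation systems 6 of 7 tested, among the receptors 3 of 6 and among the other selective factors 3 of 5. In the Atg9 group 2 of 6 rose, the phosphatidylinositol 3-kinase subunits ATG14 and ATG38 did not pass the test, and the only fall was in the vacuolar group. ATG44 and ATG45 were placed in none of these role groups and are not in their counts, here or below. The counts are those of fixed lists, which need not hold every gene with such a role. ATG16 was not tested because its values are close to 0. The libraries of points 1 and 4 did not overlap for 32 of the 36 members, but with 2 cultures a group this held for 78.2% of all genes. At the study's limits of a fold over 2 and an adjusted p under 0.005, 3 members passed (3.4% of all genes).

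**Figure D1:**
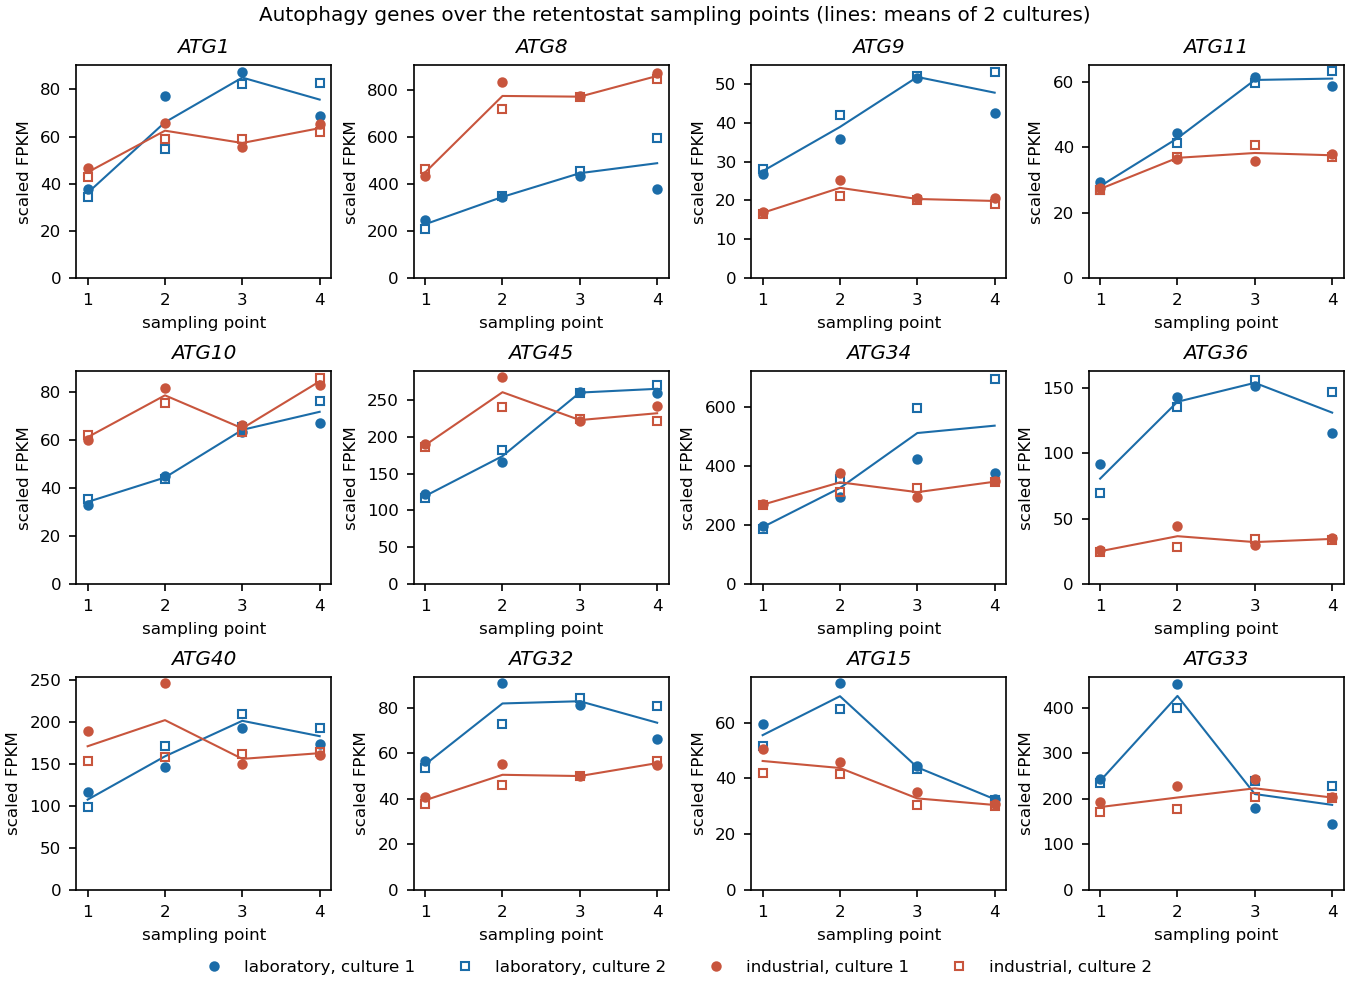
Scaled FPKM (vertical axes, from 0) of 12 autophagy genes at sampling points 1 to 4 (horizontal axes) in the laboratory (blue) and industrial (red) retentostats, with filled circles for culture 1, open squares for culture 2 and lines through the means of 2 cultures. ATG11 in the laboratory retentostats goes from 26.9 and 29.4 at point 1 to 58.8 and 63.3 at point 4, ATG8 in the industrial retentostats makes most of its rise by point 2, and ATG15 falls in both series.

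ATG1 encodes the protein kinase that starts autophagosome formation. In the laboratory retentostats it had 38.0 and 34.4 scaled FPKM in cultures 1 and 2 at point 1, 77.4 and 54.8 at point 2, 87.6 and 82.5 at point 3, and 68.6 and 82.8 at point 4. All later libraries were above both of point 1, and points 3 and 4 overlapped. The change from point 1 to point 4 was 1.04 ± 0.18 (log2, SE, n = 2 cultures, adjusted p = 0.0071 by limma). Of its partners, ATG17 (0.33 ± 0.11) and ATG31 (0.67 ± 0.19), 2 subunits of the scaffold that gathers the complex, also rose (adjusted p = 0.049 and 0.032). With the culture as a block, ATG17 was past the threshold no longer (adjusted p = 0.054). ATG13, the regulatory subunit that TORC1 phosphorylates, had 81.7 in culture 1 against 45.9 in culture 2 at point 2, and from 36.2 to 48.0 at all other points. Its change from point 1 to point 4 was 0.19 ± 0.24 and did not pass the test.

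ATG8 had 247 and 210.3 scaled FPKM at point 1, 343 and 347 at point 2, 436 and 455 at point 3, and 379 and 596 at point 4 in the laboratory retentostats. The 2 cultures lay close together up to point 3 and parted at point 4, where both were still above all libraries of point 2. The change was 1.06 ± 0.24 (adjusted p = 0.017, limma). The enzymes that conjugate Atg8 and Atg12 went the same way. ATG10, the conjugating enzyme of Atg12, rose from 32.7 and 35.6 at point 1 through 44.7 and 43.9, and 63.1 and 65.1, to 66.9 and 76.2 at point 4, with no overlap between any 2 points (1.04 ± 0.12, adjusted p = 0.0027). ATG12 rose by 1.07 ± 0.17, ATG5 by 0.73 ± 0.19, ATG4, the protease that processes Atg8, by 0.64 ± 0.12, and ATG7, the activating enzyme of both systems, by 0.59 ± 0.17 (adjusted p between 0.0058 and 0.032). ATG3, which conjugates Atg8 to lipid, changed by 0.43 ± 0.20 and did not pass.

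ATG9 encodes the membrane protein of the seed vesicles. It had 26.9 and 28.1 scaled FPKM at point 1, 35.9 and 41.9 at point 2, 51.4 and 52.1 at point 3, and 42.5 and 53.0 at point 4, a rise of 0.76 ± 0.14 (adjusted p = 0.0078). ATG27 rose by 0.54 ± 0.16 (adjusted p = 0.040). The other members of this group did not pass. ATG2 stayed between 10.5 and 12.6, and ATG23, which moves with Atg9 and Atg27, went from 67.7 and 67.2 through 111 and 79.3 to 52.0 and 52.8 (-0.36 ± 0.16). ATG18, which binds phosphatidylinositol 3-phosphate, and ATG41, which acts in Atg9 transport, changed by -0.26 ± 0.17 and -0.17 ± 0.24.

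ATG11, the scaffold on which receptors with their cargo meet the core machinery, had 29.4 and 26.9 scaled FPKM at point 1, 44.3 and 41.3 at point 2, 61.7 and 59.6 at point 3, and 58.8 and 63.3 at point 4. The step from point 1 to point 2 and that from point 2 to point 3 were each larger than the gap between cultures, and points 3 and 4 overlapped. Its change of 1.09 ± 0.11 had the smallest adjusted p of all members (0.0021). ATG21 (0.44 ± 0.13) and ATG26 (0.52 ± 0.16), a sterol glucosyltransferase that acts in peroxisome autophagy in Pichia pastoris, also rose (adjusted p = 0.039 and 0.041). ATG33, whose product lies in the mitochondrial outer membrane and acts in mitophagy, took another course. It had 245 and 234 at point 1, 452 and 400.0 at point 2, 181 and 240.3 at point 3, and 145 and 229 at point 4, so that point 2 stood above all others, and its change of -0.39 ± 0.25 from point 1 to point 4 did not pass.

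The receptors were not alike. ATG34, which brings alpha-mannosidase to the vacuole under starvation, had 198 and 188 scaled FPKM at point 1, 296 and 356 at point 2, 426 and 599 at point 3, and 378 and 697 at point 4. Culture 2 was higher than culture 1 from point 2 on, and both cultures rose (1.41 ± 0.31, adjusted p = 0.015). ATG40, a receptor of the endoplasmic reticulum, rose from 117 and 98.6 to 174 and 193 (0.77 ± 0.17, adjusted p = 0.015), and ATG36, the peroxisome receptor, from 91.7 and 69.5 to 115 and 147 (0.70 ± 0.19, adjusted p = 0.028), with its highest values at point 3 (151 and 156). ATG39, a receptor of the nuclear envelope, had 184 and 169 at point 1 and 235 and 375 at point 4 (0.75 ± 0.25, adjusted p = 0.054), and ATG32, the mitochondrial receptor, 56.7 and 53.3 at point 1 and 66.1 and 80.5 at point 4 (0.40 ± 0.16, adjusted p = 0.086). These did not pass at point 4, although both were among the 22 members that were past the threshold at point 3 against point 1. ATG19, the receptor of the cytoplasm-to-vacuole pathway, stayed between 149 and 179 in all 8 libraries (0.04 ± 0.15).

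The largest rise was that of ATG44, followed by that of the receptor gene ATG34 given above. ATG44 had 176 and 202 scaled FPKM at point 1, 109 and 238 at point 2, 464 and 532 at point 3, and 517 and 638 at point 4. The low value of culture 1 at point 2 was below both libraries of point 1, whereas points 3 and 4 were far above them, and the change was 1.60 ± 0.34 (adjusted p = 0.013). ATG45 rose from 122 and 117 through 165 and 182 to 261 and 259 and then 259 and 271 (1.14 ± 0.15, adjusted p = 0.0035). The member that fell was ATG15, the vacuolar lipase that opens the membrane of the delivered body. It had 59.6 and 51.5 at point 1, 74.2 and 64.8 at point 2, 44.5 and 43.5 at point 3, and 32.7 and 32.4 at point 4, and its fall came after point 2 (-0.75 ± 0.12, adjusted p = 0.0061). ATG22, a vacuolar exporter of amino acids, went from 64.8 and 62.5 to 97.6 and 152 without passing the test (0.93 ± 0.39, adjusted p = 0.11), and ATG42, a vacuolar carboxypeptidase, did not pass it either (from 126 and 118 to 103 and 143).

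Against point 1, no member and no other gene passed at point 2 in the laboratory retentostats (0% of 5596 genes by limma), where 23 members and 1491 of all genes had an unadjusted p under 0.05, and the median change of the members was 0.51. At point 3, 22 members rose and none fell (30.3% of all genes were called in either direction). A steady trend over the point number asks more than a difference between ends. At an adjusted p under 0.03 and an R2 over 0.8, the limits of the study, 5 of 36 members rose and none fell, against 6.13% of all genes rising, 3.73% falling and 9.86% called in all. These were ATG45 (0.40 ± 0.06 per point, R2 0.90), ATG11 (0.38 ± 0.06, R2 0.87), ATG10 (0.37 ± 0.04, R2 0.95), ATG12 (0.35 ± 0.06, R2 0.84) and ATG4 (0.21 ± 0.04, R2 0.92), with adjusted p between 0.0041 and 0.0061. ATG1, ATG8 and ATG9 had slopes of 0.35 ± 0.09, 0.35 ± 0.08 and 0.27 ± 0.06 with adjusted p of 0.020, 0.013 and 0.013, but R2 of 0.64, 0.77 and 0.72. Without the limit on R2 and at an adjusted p under 0.05, 15 members rose and 1 fell (31.3% of all genes called). With the culture as a block, ATG26 (R2 0.83, adjusted p = 0.024) and ATG34 (R2 0.83, adjusted p = 0.011) were called as well.

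These counts depend on single libraries, since each point had 2. Without culture 2 at point 1 the count of members called at the last point fell from 20 to 2, without culture 1 at point 1 and without culture 2 at point 4 to 5 each, and without culture 1 or 2 at point 3 to 13 and 12. The number of all genes called fell in the same settings, from 1735 to between 134 and 1172. For the trend, the 5 calls became 1 without culture 2 at point 1, 3 without culture 1 at point 1 or culture 2 at point 4, and 13 without culture 1 at point 4.

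In the industrial retentostats transcripts of several parts of the machinery also rose. From the first to the last sampling point 13 of 35 members tested rose and 2 fell, whereas 14% of 5128 genes rose, 14% fell and 28% were called in all. The median change of the members was 0.28, against 0.00021 for all genes. Members of the Atg1 complex (3 of 5 rose), the conjugation systems (4 of 8) and the other selective factors (3 of 5) made up most of the rise, with 1 of 6 receptors and 1 of 2 phosphatidylinositol 3-kinase subunits. Points 1 and 4 did not overlap for 30 of the 35 members, and for 80.8% of all genes. No member passed a fold over 2 with an adjusted p under 0.005 by limma (2.4% of all genes did). An unadjusted p under 0.05 was reached by 20 members and by 2194 of all 5128 genes. ATG2 and ATG27 had means under 10 and were not tested.

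**Figure D2:**
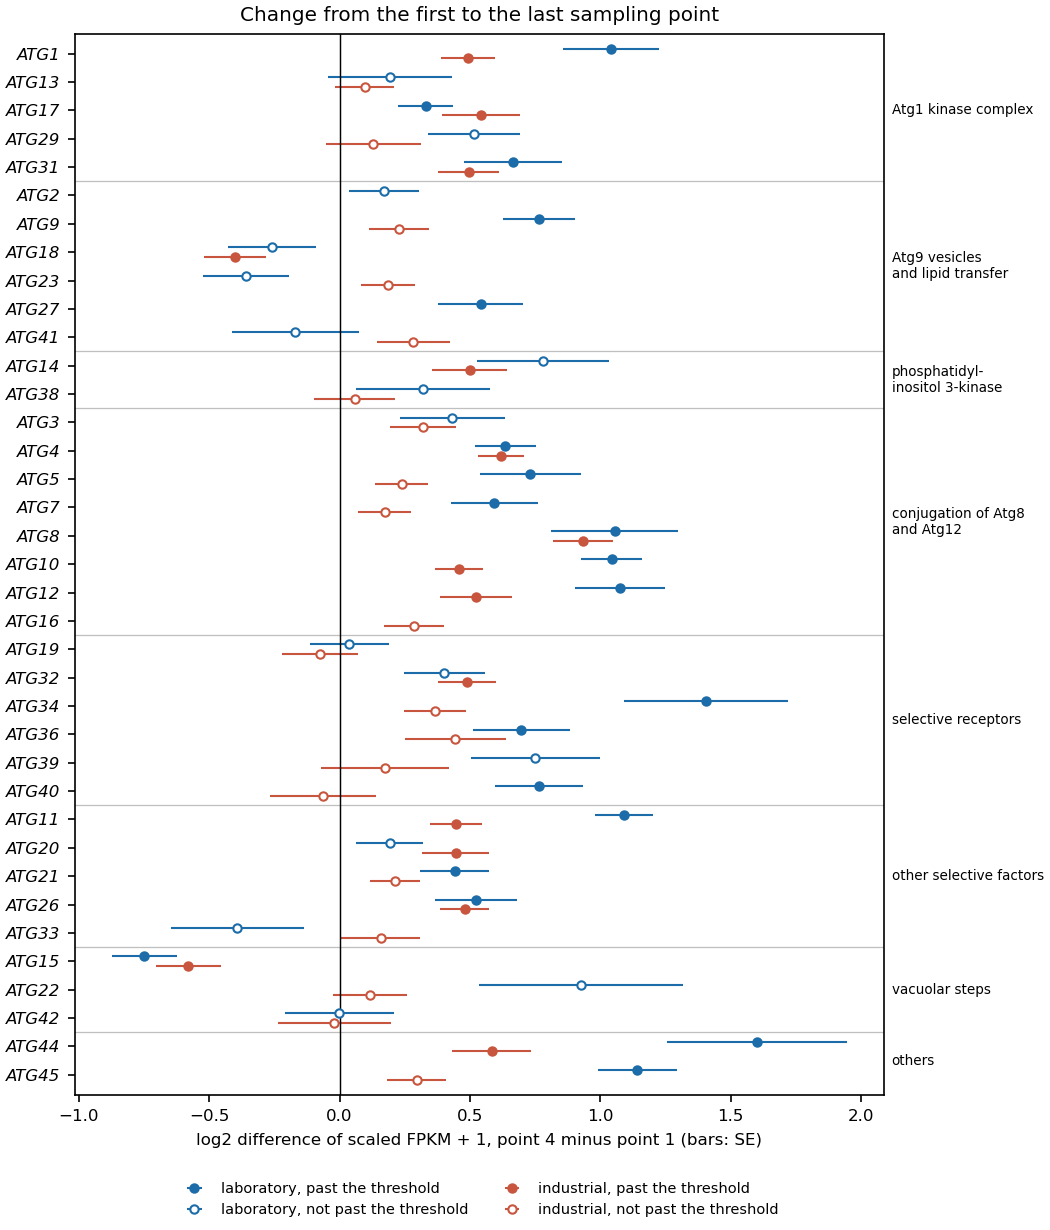
Change from sampling point 1 to sampling point 4 of each autophagy gene (rows, grouped by role) as a log2 difference of scaled FPKM + 1, in the laboratory (blue) and industrial (red) retentostats, with bars for the SE of 2 cultures a point and filled symbols for an adjusted p under 0.05. Most symbols lie to the right of 0, ATG15 lies at -0.75 and -0.58, and genes with a mean under 10 in a series have no symbol for it.

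ATG8 had 435 and 462 scaled FPKM at point 1, 830.2 and 716 at point 2, 773 and 767 at point 3, and 870.2 and 845 at point 4 in the industrial retentostats. All libraries of the later points lay between 716 and 870.2, far above point 1 (0.93 ± 0.11, adjusted p = 0.0026). ATG4 rose from 36.3 and 35.1 through 50.3 and 47.7, and 51.6 and 52.4, to 55.5 and 55.1 (0.62 ± 0.09, adjusted p = 0.0043), and ATG44 from 575 and 542 to 779 and 901 (0.58 ± 0.15, adjusted p = 0.028). ATG1 rose from 46.8 and 43.0 to 65.3 and 61.8 (0.49 ± 0.10, adjusted p = 0.014), with 65.9 and 59.1 already at point 2. ATG17, ATG31, ATG10, ATG12, ATG14 and ATG26 rose by 0.46 to 0.54. ATG11 went from 27.6 and 27.0 to 38.0 and 37.2 (0.45 ± 0.10, adjusted p = 0.016), having had 36.5 and 37.2 at point 2. ATG20, a sorting nexin, rose by 0.45 ± 0.13 (adjusted p = 0.038, and 0.053 with the culture as a block).

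Of the receptors, ATG32 rose from 40.9 and 37.8 at point 1 to 54.6 and 56.7 at point 4 (0.49 ± 0.11, adjusted p = 0.018). The others did not pass. ATG36 had 25.8 and 24.4 at point 1 and 35.0 and 34.1 at point 4 (0.44 ± 0.19), ATG40 had 189 and 154 and then 161 and 165 (-0.06 ± 0.20), and ATG19 had 132 and 146 and then 137 and 127 (-0.07 ± 0.15). ATG39 had 449 in culture 1 at point 2 and 196 to 244 in the other 7 libraries. ATG42 likewise had 255 in that library and 133 to 155 elsewhere. ATG9 had 17.1 and 16.5 at point 1, 25.3 and 21.2 at point 2, and 20.5 and 19.2 at point 4. It was called at point 2 (0.44 ± 0.12, adjusted p = 0.043) but not at point 4 (0.23 ± 0.12, adjusted p = 0.17). The members that fell were ATG15, from 50.4 and 42.1 through 46.0 and 41.5, and 35.1 and 30.6, to 30.8 and 30.2 (-0.58 ± 0.12, adjusted p = 0.015), and ATG18, from 21.3 and 18.3 to 14.2 and 15.3 (-0.40 ± 0.12, adjusted p = 0.043, and 0.053 with the culture as a block).

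At point 2 of the industrial series 12 members had already risen against point 1 and none had fallen (17.8% of all genes called, median of the members 0.38), ATG9, ATG13 and ATG45 among them, which were not called at point 4. The 2 cultures were less alike at point 2 than at the other points, as given above. At point 3 there were 4 that rose and 1 that fell (17.3%), and at point 4 those given above. By the trend rule, ATG4 rose (0.19 ± 0.04 per point, R2 0.82, adjusted p = 0.015) and ATG15 fell (-0.21 ± 0.04 per point, R2 0.82, adjusted p = 0.013), 2 of 35 members against 6.53% of all genes (3.55% rising and 2.98% falling). ATG8 had a slope of 0.28 ± 0.07 with an R2 of 0.72. Without culture 1 at point 2, 10 members passed the trend rule, and without culture 1 at point 1, or either culture at point 4, none did, while the call of 15 members at the last point became 1 without culture 2 at point 4, 2 without culture 1 at point 1 or at point 4, 8 without culture 2 at point 1, and 9 without either culture at point 3. The trend rule called 1 member without culture 2 at point 1 or either culture at point 3.

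The 2 series share no library, so their calls can be set side by side. Of the 34 members tested in both, 18 rose in the laboratory and 13 in the industrial retentostats, and 10 rose in both, 55.6% of the first and 76.9% of the second. Over all 5005 genes tested in both, 791 rose in the laboratory and 689 in the industrial series, and 328 rose in both. These were 41.5% of the first and 47.6% of the second. A larger part of the members than of all genes rose in each series. The higher shares of the members therefore do not show that they agreed better between series. The 10 members were ATG1, ATG4, ATG8, ATG10, ATG11, ATG12, ATG17, ATG26, ATG31 and ATG44, and ATG15 fell in both. The sign of the change was the same for 29 of the 34 members (85.3%) and for 72.6% of all genes. Most members changed upward in each series, which raises their share, so these percentages are not comparable as agreement. A test of the difference between the series, industrial minus laboratory, called 4 of 36 members, all with the more negative change in the industrial series (5.57% of all genes were called, 2.37% in this direction and 3.2% in the other). These were ATG27 (-1.03 ± 0.22, adjusted p = 0.024), whose level differed between the 2 sets of libraries as given above, ATG45 (-0.85 ± 0.18, adjusted p = 0.023), ATG11 (-0.64 ± 0.14, adjusted p = 0.026) and ATG10 (-0.59 ± 0.15, adjusted p = 0.039). With a mean under 10 in the industrial series, ATG27 passed the filter over both series only through its laboratory libraries. For ATG1 the difference was -0.55 ± 0.22 (adjusted p = 0.16), for ATG9 -0.54 ± 0.18 (0.10), for ATG40 -0.83 ± 0.27 (0.095) and for ATG8 -0.12 ± 0.27 (0.84), so the larger rise of ATG1 and ATG9 in the laboratory retentostats was not shown to differ between series. No member was called without a library of point 1 of either series, of point 4 of the industrial series, or without culture 2 at point 4 of the laboratory series, and 8 were called without either culture at point 2 of the laboratory series. The 2 series differ in pH, CO2, medium, growth rate at a given point and, by the study's methods, sequencing, which cannot be told apart. By the sample titles, points 3 and 4 carry later sampling numbers in the laboratory than in the industrial series. The study reports a lower lowest growth rate for the laboratory retentostats and a higher death rate for the industrial ones.

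For CO2 at pH 5, no autophagy gene passed the test in the chemostats. None of the 35 members tested (ATG2 and ATG27 had means under 10) passed an adjusted p under 0.05 (1.83% of 5184 genes did), 2 had an unadjusted p under 0.05, and their median difference was -0.15, against 0.0026 for all genes. The nearest to the threshold was ATG19, with 139.6, 125 and 164 scaled FPKM in the reference replicates 1 to 3 and 104, 94.1 and 105 at 50% CO2 (-0.49 ± 0.12, adjusted p = 0.062). These groups did not overlap, which held for 3 members and for 15.5% of all genes. ATG1, ATG8, ATG9, ATG11, ATG32, ATG36, ATG39 and ATG40 differed by -0.28 to 0.24. Without the 2 libraries that stand apart, none passed either, and 2.09% of all genes did.

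At pH 3 with 0.04% CO2, 6 members were higher than in the reference and none lower, 6 of 35, while 13.5% of all genes were higher, 7.81% lower and 21.3% called. The median difference of the members was -0.0014, against 0.012 for all genes. The 6 were ATG33 (0.99 ± 0.31), ATG42 (0.84 ± 0.20), ATG18 (0.76 ± 0.25), ATG36 (0.69 ± 0.23), ATG32 (0.66 ± 0.17) and ATG15 (0.61 ± 0.14), with adjusted p from 0.0098 to 0.049 by limma. ATG33 had 371, 411 and 237 scaled FPKM in the reference and 605, 683 and 684 at pH 3, with no overlap. ATG42 had 198, 173 and 116 in the reference and 263, 291 and 299 at pH 3, and ATG15 had 47.2, 58.9 and 42.8 and then 79.5, 74.8 and 72.0. For each of these genes the lowest reference value was that of replicate 3, the library that stands apart. Of the receptors, ATG32 had 42.2, 47.2 and 32.9 in the reference and 66.6, 64.7 and 61.6 at pH 3, and ATG36 had 49.6, 43.9 and 24.8 and then 55.9, 66.7 and 63.4.

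Genes of autophagosome formation were not called in this comparison apart from ATG18. ATG1 had 42.7, 42.9 and 32.5 in the reference and 51.7, 44.6 and 48.4 at pH 3 (0.30 ± 0.12, adjusted p = 0.095), and ATG8 276, 259.5 and 360.3 and then 344, 384 and 386 (0.33 ± 0.16, adjusted p = 0.17). ATG11 was at 25.7, 26.2 and 23.8 and then 22.5, 18.8 and 19.4 (-0.31 ± 0.11, adjusted p = 0.060). The choice of scale decides the split here, since 1 member was higher and 8 were lower with unscaled values, in which the median gene was lower by 0.42. Without the 2 libraries that stand apart, 6 members were higher and 2 lower (21.3% of all genes called), and 4 of the 6 remained: ATG15, ATG32, ATG36 and ATG42. With each of the 12 libraries left out in turn, ATG36 lost its call in 10 settings. ATG18 and ATG33 lost theirs in 8 settings each, and ATG32 and ATG42 in 2 each. Single libraries mattered too, as 1 member was called without replicate 2 and 2 without replicate 3 of pH 3 with 0.04% CO2, 2 without replicate 3 and 3 without replicate 2 of the reference, and 3 without replicate 2 of pH 5 with 50% CO2 or without the industrial library of culture 2. The number of all genes called fell in the same settings, from 1103 to between 522 and 984.

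**Figure D3:**
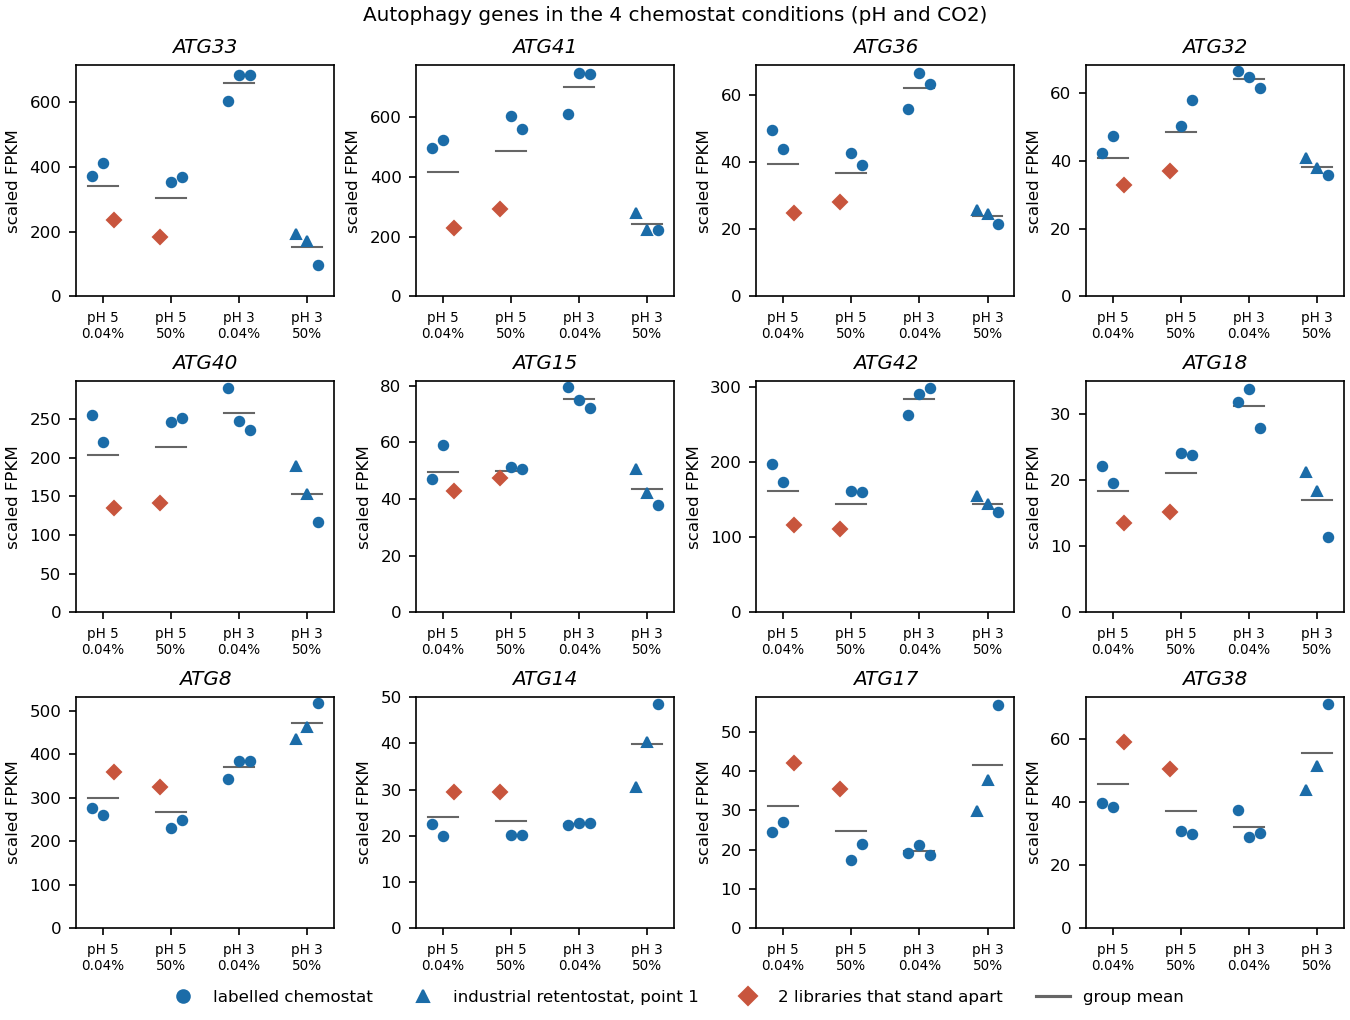
Scaled FPKM (vertical axes, from 0) of 12 autophagy genes in the chemostat libraries of the 4 conditions (horizontal axes, pH and CO2), with 3 libraries and their mean (grey line) in each. Triangles are the 2 libraries of the industrial retentostats at point 1, red diamonds are the 2 libraries that stand apart, and ATG33 is highest at pH 3 with 0.04% CO2 (605 to 684) and lowest at pH 3 with 50% CO2 (95.6 to 193).

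The clearest difference between chemostats lay between 50% and 0.04% CO2 at pH 3. There 9 of 35 members were higher at 50% CO2 and 9 were lower, and 21.9% of all genes were higher, 27% lower and 48.9% called. The median difference of the members was 0.21 and that of all genes -0.011. The groups did not overlap for 27 of the 35 members, and for 67.1% of all genes. The share of members called, 18 of 35, was thus near that of all genes. The called members are given by role as a description, since no difference between roles was tested. In the Atg1 complex (ATG17 and ATG31), the phosphatidylinositol 3-kinase (ATG14 and ATG38), the conjugation systems (ATG12) and among the other selective factors (ATG11, ATG20 and ATG26) the called members were higher, apart from ATG33, and ATG45 was higher too. All 3 members of the vacuolar group, 3 of 6 receptors, and ATG18 and ATG41 of the Atg9 group were lower.

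ATG33 differed most in this comparison. It had 605, 683 and 684 scaled FPKM at 0.04% CO2, and at 50% CO2 193 and 172 in the 2 industrial libraries and 95.6 in the library labelled chemostat (-2.15 ± 0.31, adjusted p = 0.00063). ATG41 had 611, 749 and 746 and then 278, 224 and 222 (-1.54 ± 0.33, adjusted p = 0.0040). ATG36 had 55.9, 66.7 and 63.4 and then 25.8, 24.4 and 21.7 (-1.34 ± 0.23, adjusted p = 0.0014). These 3 genes were also those that passed a fold over 2 and an adjusted p under 0.005 (9.09% of all genes did). ATG32 had 66.6, 64.7 and 61.6 and then 40.9, 37.8 and 35.9 (-0.74 ± 0.17, adjusted p = 0.0053), and ATG40 had 291, 247 and 236 and then 189, 154 and 117 (-0.77 ± 0.28, adjusted p = 0.037). In the vacuolar group, ATG15 differed by -0.79 ± 0.14, ATG22 by -0.89 ± 0.26 and ATG42 by -0.97 ± 0.20, with adjusted p from 0.0014 to 0.017.

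Among the genes that were higher, ATG17 had 19.1, 21.3 and 18.5 scaled FPKM at 0.04% CO2 and 29.7, 37.6 and 56.8 at 50% CO2 (0.99 ± 0.28, adjusted p = 0.016). ATG14 had 22.4, 22.9 and 22.7 and then 30.5, 40.2 and 48.6 (0.76 ± 0.20, adjusted p = 0.010), and ATG38 had 37.5, 28.9 and 30.4 and then 43.8, 51.6 and 71.3 (0.75 ± 0.24, adjusted p = 0.025). In each of these the library labelled chemostat was the highest, above the 2 industrial libraries. ATG11 had 22.5, 18.8 and 19.4 and then 27.6, 27.0 and 27.8 (0.43 ± 0.11, adjusted p = 0.0091). ATG8 did not overlap between the groups (344, 384 and 386, and then 435, 462 and 518) but did not pass (0.34 ± 0.16, adjusted p = 0.10). ATG1 (-0.12 ± 0.12), ATG9 (-0.02 ± 0.13), ATG19 (0.23 ± 0.12) and ATG39 (0.14 ± 0.15) did not pass either. With unscaled values 25 members were higher and 4 lower, with the median gene higher by 0.60, and the differences of ATG1 and ATG9 were 0.49 and 0.57. Without the 2 libraries that stand apart 16 members were higher and 10 lower (62.3% of all genes called), among them all 18. Without the library labelled chemostat, 3 were higher and 7 lower, and 1742 of all genes were called, against 2533 with all libraries.

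**Figure D4:**
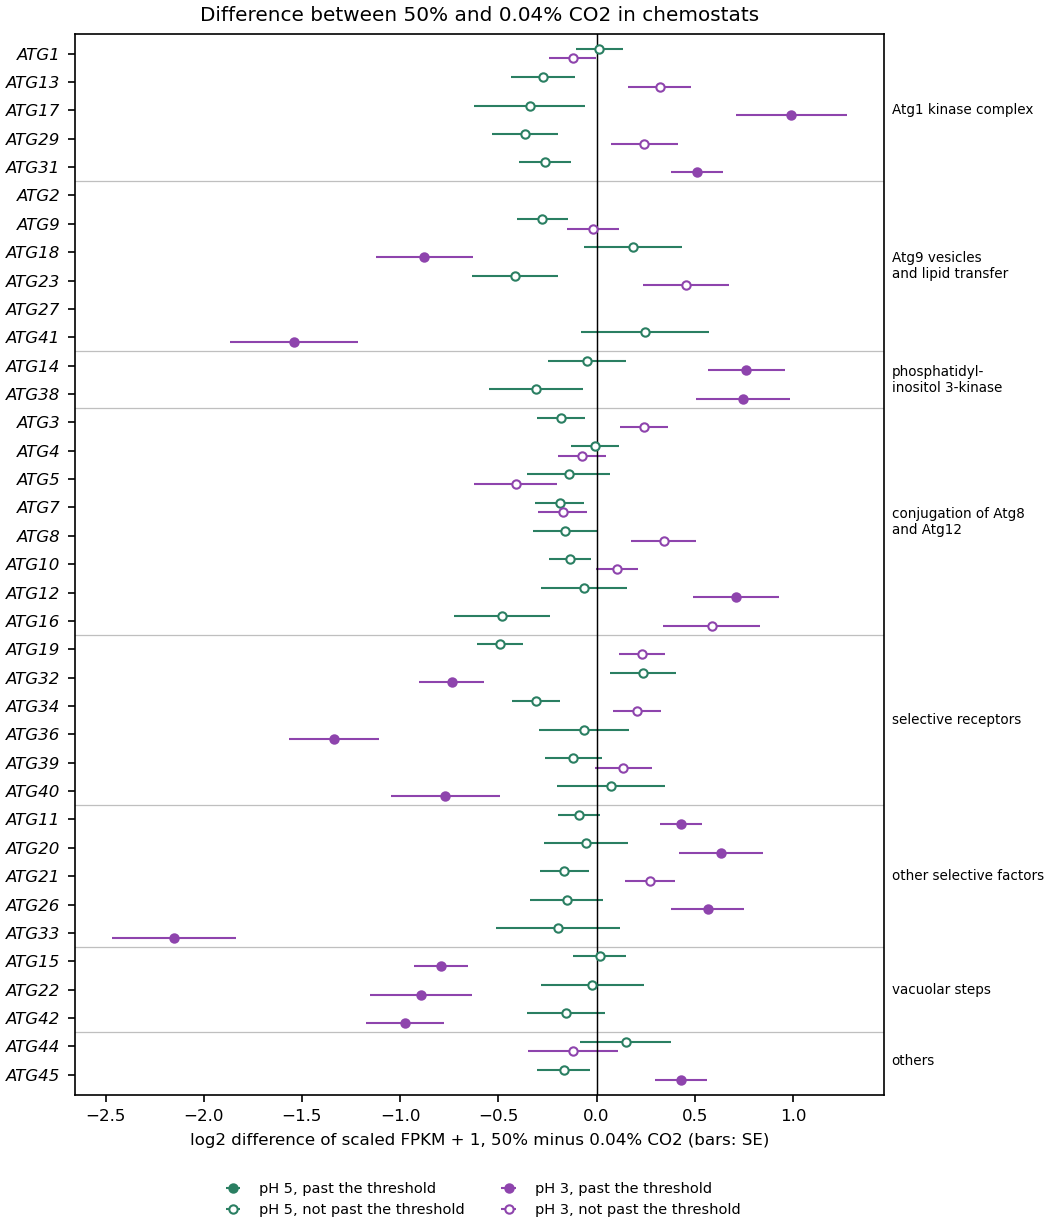
Difference of each autophagy gene (rows, grouped by role) between 50% and 0.04% CO2 as a log2 difference of scaled FPKM + 1, at pH 5 (green) and at pH 3 (purple), with bars for the SE of 3 libraries a group and filled symbols for an adjusted p under 0.05. No filled symbol is green, and at pH 3 the filled symbols run from -2.15 for ATG33 to 0.99 for ATG17.

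The 2 remaining comparisons with pH 3 and 50% CO2 called few members with all libraries. Against the reference, ATG14 (0.70 ± 0.20) and ATG8 (0.67 ± 0.16) were higher and ATG33 (-1.17 ± 0.31) was lower, 3 of 35 members against 9.9% of all genes (3.72% higher and 6.17% lower), with adjusted p of 0.046, 0.028 and 0.039. Their medians were 0.12 for the members and 0.010 for all genes. ATG8 had 276, 259.5 and 360.3 in the reference and 435, 462 and 518 at pH 3 with 50% CO2. Against pH 5 with 50% CO2, ATG8 (0.83 ± 0.16), ATG14 (0.75 ± 0.20), ATG45 (0.62 ± 0.13) and ATG19 (0.49 ± 0.12) were higher, 4 of 35 members against 6.29% of all genes (2.64% higher and 3.65% lower), with adjusted p from 0.015 to 0.046, and the medians were 0.27 and -0.011. ATG8 had 324, 230.1 and 248 at pH 5 with 50% CO2, all below the libraries at pH 3. The other genes of the core that are named throughout did not pass in these comparisons, ATG1 with 0.17 ± 0.12 and 0.16 ± 0.12, ATG9 with -0.01 ± 0.13 and 0.27 ± 0.13, and ATG11 with 0.12 ± 0.11 and 0.21 ± 0.11. Of the receptors, ATG36 differed by -0.64 ± 0.23 and -0.58 ± 0.23, ATG40 by -0.38 ± 0.28 and -0.46 ± 0.28, ATG32 by -0.08 ± 0.17 and -0.31 ± 0.17, and ATG39 by 0.13 ± 0.15 and 0.25 ± 0.15.

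Both of these comparisons depend on the libraries that stand apart. Without them, 8 members were higher and 7 lower against the reference (40.3% of all genes called), the 3 named ones among them, with ATG41 (-1.09 ± 0.14), ATG36 (-0.94 ± 0.12), ATG40 (-0.65 ± 0.18) and ATG5 (-0.62 ± 0.10) lower and ATG12 (0.81 ± 0.19) and ATG20 (0.70 ± 0.19) higher. Against pH 5 with 50% CO2, 18 were higher and 7 lower (45.8% of all genes called), with ATG23 (1.04 ± 0.12), ATG8 (0.97 ± 0.12) and ATG12 (0.94 ± 0.19) higher and ATG33 (-1.29 ± 0.24) and ATG41 (-1.28 ± 0.14) lower. Replicate 3 of the reference resembled pH 3 with 50% CO2 in several of these genes, as in ATG41, which had 499, 525 and 228 in the reference replicates 1 to 3 and 278, 224 and 222 at pH 3 with 50% CO2. Replicate 1 of pH 5 with 50% CO2 had 293 there, and its group 605 and 562. What set these 2 cultures apart was not tested. Other single libraries moved the counts as well. Against the reference, no member was called without replicate 1 or 2 of the reference, the library labelled chemostat or the industrial library of culture 2, 1 was called without any replicate of pH 3 with 0.04% CO2, 5 without replicate 1 of pH 5 with 50% CO2 and 9 without replicate 3 of the reference. In this last setting 1179 of all genes were called, against 513 with all libraries and 197 without replicate 2 of the reference. Against pH 5 with 50% CO2, none was called without replicate 2 or 3 of that group, the library labelled chemostat or the industrial library of culture 2, 2 without replicate 2 or 3 of pH 3 with 0.04% CO2, 8 without replicate 3 of the reference and 21 without replicate 1 of pH 5 with 50% CO2. Here all genes called numbered 1694 without replicate 1 of pH 5 with 50% CO2 and 82 and 91 without its replicates 2 and 3. With all libraries they numbered 326.

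The interaction of pH and CO2 asks whether the difference made by 50% CO2 was the same at both pH values. It was called for 12 of 35 members, 7 with a more positive difference at pH 3 and 5 with a more negative one, against 20.9% of all genes (6.29% and 14.6%). The median over the members was 0.43 and that over all genes -0.016. The most negative were ATG33 (-1.96 ± 0.45), ATG41 (-1.78 ± 0.46) and ATG36 (-1.27 ± 0.32), followed by ATG32 (-0.97 ± 0.23) and ATG15 (-0.81 ± 0.19), with adjusted p from 0.014 to 0.022. The most positive were ATG17 (1.33 ± 0.40), ATG16 (1.07 ± 0.35) and ATG38 (1.06 ± 0.34), followed by ATG31, ATG19, ATG45 and ATG11 (0.77 to 0.52), with adjusted p from 0.015 to 0.049. ATG16 had 14.6, 19.8 and 25.2 scaled FPKM in the reference and 20.5, 10.2 and 12.0 under 50% CO2 at the same pH. At pH 3 it had 15.9, 14.1 and 16.5 under 0.04% CO2 and 21.8, 21.1 and 28.9 under 50% CO2, so that these last groups did not overlap whereas those at pH 5 did. ATG1, ATG8 and ATG9 did not pass (-0.14 ± 0.17, 0.50 ± 0.23 and 0.26 ± 0.19). With unscaled values 22 members were more positive and 2 more negative, with the median gene at 0.62, and without the 2 libraries that stand apart 17 and 9 (43.3% of all genes called), all 12 among them. At a fold over 2 and an adjusted p under 0.005 by limma, no member passed in the interaction (2.51% of all genes did, and 25 members had an unadjusted p under 0.05), nor at pH 3 with 0.04% CO2 against the reference (3.68%, and 10 members), at pH 3 with 50% CO2 against the reference (1.5%, and 7 members) or between pH 3 and pH 5 at 50% CO2 (0.965%, and 20 members). The share of all genes with an unadjusted p under 0.05 is not given for the chemostat comparisons, so the member counts at that limit have no background. For the interaction, leaving out replicate 1 of pH 5 with 50% CO2 alone gave 27 calls, and leaving out replicate 2 or 3 of that group gave 3 and 4. It gave 5 without the library labelled chemostat, 6 without the industrial library of culture 2, and 5 and 4 without replicates 2 and 3 of pH 3 with 0.04% CO2. All genes called by the interaction numbered 2437 without replicate 1 of pH 5 with 50% CO2. They numbered 420 to 641 in the other settings named here, against 1085 with all libraries.

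Genes of the pathway with other names were counted in 3 lists. Of 12 genes for the phosphatidylinositol 3-kinase and for fusion with the vacuole, 4 rose and none fell from point 1 to point 4 in the laboratory retentostats (of 12 tested, median 0.39, with 17% of all genes rising), and 4 rose and none fell in the industrial ones (of 11 tested, median 0.20, with 14% of all genes rising). YKT6, a membrane fusion protein, rose in both (0.95 ± 0.19 and 0.47 ± 0.10), and VPS30, which is also known as ATG6, rose in the laboratory series (0.39 ± 0.11, adjusted p = 0.029). At pH 3, 3 of 11 were higher at 50% than at 0.04% CO2, VPS30 among them (0.66 ± 0.17), where 21.9% of all genes were higher. Of 9 vacuolar hydrolases and their cargo, none rose and 2 fell in each retentostat series (medians -0.18 and -0.23, with 14% of all genes falling in each), the protease gene PRB1 by -0.72 ± 0.21 in the laboratory series and the carboxypeptidase gene PRC1 by -0.80 ± 0.22 in the industrial series. At pH 3 with 0.04% CO2, 5 of these 9 were higher than in the reference (13.5% of all genes were), PRB1 by 1.87 ± 0.20 and the master protease gene PEP4 by 1.12 ± 0.28, and 7 of the 9 were lower at 50% than at 0.04% CO2 at pH 3 (median -0.79, PEP4 -1.47 ± 0.28, with 27% of all genes lower). The vacuolar members ATG15 and ATG42 had the same directions in these chemostat comparisons.

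Of 19 regulators, 4 rose and 1 fell in the laboratory retentostats (of 19 tested, median 0.0093), and 4 rose and 1 fell in the industrial ones (of 16 tested, median 0.10). Over all genes 17% rose and 14% fell in the laboratory series, and 14% rose and 14% fell in the industrial series, so these shares were near those of all genes. RPH1, a repressor of autophagy genes, rose in both (0.71 ± 0.15 and 0.66 ± 0.09), and GAT1, an activator of genes of nitrogen use, fell in both (-1.46 ± 0.20 and -0.75 ± 0.14). TOR1, a kinase of TORC1, rose in the laboratory series (0.53 ± 0.14, adjusted p = 0.028). At pH 3, 2 of 16 regulators were higher and 7 lower at 50% than at 0.04% CO2 (median -0.35, against 21.9% and 27% of all genes), with BCY1, the inhibitory subunit of protein kinase A, at -1.33 ± 0.19.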

How the data were processed

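RNA of 26 libraries was sequenced, and the authors deposited FPKM values per gene. By the study's methods and the submitters' processing notes, reads were aligned with STAR 2.5.3a to S288C R64, sorted with SAMtools and counted with HTSeq, and edgeR was used for normalization and tests, none of whose results were used here. FPKM were converted back to reads with gene lengths, and 99.7% to 99.9% of values of up to 1000 reads came out whole within 0.05. Of the 6600 gene IDs, 5917 matched R64 and 683 did not. Libraries were scaled by median-of-ratios factors over 5422 genes with a mean of at least 10. Since the files hold FPKM, limma 3.58.1 in R 4.3.3 was run on log2(scaled FPKM + 1) in place of a count test, for genes with a mean of at least 10 in the fit, two-sided, with Benjamini-Hochberg adjustment over all genes tested. The 12 chemostat libraries were fitted together and each retentostat condition apart, on the point number because growth rates per point were not used here. Nothing in the labels beyond the culture names separates biological from technical spread, so p-values measure the spread between these libraries.

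ATG1, ATG8, ATG9, ATG11, ATG19, ATG32, ATG36, ATG39 and ATG40 were named by rule in each comparison, with up to 3 called, non-overlapping members of the largest change in each direction. Other genes were named after their values had been seen. Members, lists and motifs were chosen with earlier results of these data known. Alternatives were other scalings, filters, pseudocounts, limits and sample sets, each library left out, and the replicate number as a block. In the retentostats this number names the same reactor at all points by the sample titles, so it pairs them, and same-culture deviations correlated at -0.01 to 0.72 in the laboratory and -0.07 to 0.27 in the industrial series. On simulated data a change of 1 log2 unit was recovered for 85% of changed genes in a chemostat comparison of 3 against 3 libraries (5184 genes), 48% in the interaction (5184), 68% between laboratory points (5596), 84% between industrial points (5128) and 49% in the difference between series (5531). The simulation drew independent noise for each gene and library and changed few genes. In the real data, deviations were shared between some libraries and many genes were called, so recovery there can differ. Figures were drawn with matplotlib 3.10.9.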

Additional observations from a re-analysis of the deposited data

Results flagged for a closer look

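The difference made by 50% CO2 was unlike at pH 5 and pH 3 for 12 of 35 members, by the test of the interaction of pH and CO2. Of all genes, 20.9% were called by this test. It was more positive at pH 3 for ATG17 (1.33 on the log2 scale), ATG16 (1.07), ATG38 (1.06), ATG31 (0.77), ATG19 (0.72), ATG45 (0.60) and ATG11 (0.52), and more negative for ATG33 (-1.96), ATG41 (-1.78), ATG36 (-1.27), ATG32 (-0.97) and ATG15 (-0.81). The change from the first to the last sampling point differed between the retentostat series for 4 of 36 members (5.57% of all genes), industrial minus laboratory. The values were -1.03 for ATG27, -0.85 for ATG45, -0.64 for ATG11 and -0.59 for ATG10. ATG27 had a mean under 10 in the industrial series and passed the filter over both series only through its laboratory libraries. Both counts depended on single libraries, as given below. Groups of 2 or 3 libraries were not searched for single outlying values.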

How the results depend on the processing

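Counts of called members moved more with single libraries than with most settings. With 1 library left out in turn, they ranged from 0 to 0 for CO2 at pH 5, 1 to 9 for pH at 0.04% CO2, 0 to 9 for pH 3 with 50% CO2 against the reference, 10 to 20 for CO2 at pH 3, 0 to 21 for pH at 50% CO2, 3 to 27 for the interaction, 1 to 13 and 0 to 10 for the laboratory and industrial trends, 2 to 26 and 1 to 21 for last against first point, and 0 to 8 for the difference between series. Where this left 1 library at a point, its spread was taken to be that of the other points. The number of all genes called mostly moved in the same direction as the counts of members, so these swings were not particular to the members. With deposited FPKM, the counts were 29 for CO2 at pH 3, 2 for pH at 50% CO2, 24 for the interaction, and 8 and 4 for the laboratory and industrial trends, and the CO2 differences of ATG1 and ATG9 at pH 3 became 0.49 and 0.57. With quantile normalization the industrial trend called 1 member and the difference between series 7. With a fold over 2 and an adjusted p under 0.005, 3 members were called for CO2 at pH 3, 3 for the laboratory change, and 0 in the other comparisons with that rule. Without the 2 libraries that stand apart, chosen after seeing the data, pH 3 with 50% CO2 against the reference called 15, pH at 50% CO2 25 and the interaction 26. With the compared groups alone, the former 2 called 0 and 0, and with the single library labelled chemostat the first called 1. Over log2 of the point number the laboratory trend called 10, and at an adjusted p under 0.05 with no limit on R2 the laboratory and industrial trends called 16 and 4.

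The replicate block called 3 members for pH at 0.04% CO2, 0 for pH 3 with 50% CO2 against the reference, 2 for pH at 50% CO2 and 7 for the interaction. Chemostat numbers name no shared culture (same-number deviations correlated at -0.80 to 0.49), so these samples share only a number. In the retentostats the block changed no call beyond those given in the report. Over the single genes, 2248 values kept direction and side of the threshold, 331 lost the call, 71 gained it and 2 reversed.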
